A study of Mus musculus with 2 samples.

Results

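The leukocyte tetraspanins were followed in mouse peritoneal macrophages as 9 listed genes, Cd9, Cd37, Cd53, Cd63, Cd81, Cd82, Cd151, Tspan3 and Tspan4. Members were taken as every probe set that the platform annotation assigned to 1 of these genes and to no other. This gave 16 probe sets for 8 genes, out of 18193 named genes on the array. Cd63 had no such probe set and was not analysed here.

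Each group was 1 Affymetrix expression array. The elicited array held RNA from peritoneal macrophages of C57BL/6J mice, 8 weeks old, taken 3 days after 1 mL of 3% thioglycollate had been injected into the peritoneal cavity. Thioglycollate is a broth that acts as a sterile irritant and draws leukocytes into the cavity. The resident array held macrophages of untreated C57BL/6J mice of the same age. Both were enriched by adherence to plastic, for 2 h by the protocol text and overnight by the design text, so the time in culture is uncertain. Non-adherent cells were washed off, so each sample is an adherent fraction and not a sorted population. Neither the sex of the mice nor the number pooled per array is stated in the labels.

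Tetraspanins are small membrane proteins that cross the membrane several times and gather integrins, immunoglobulin-family proteins, proteases and one another into patches of the cell surface. They act mostly through the partners they hold in place, in adhesion, migration, antigen presentation and the sorting of cargo into exosomes. In mouse macrophages CD9 and CD81 are known to restrain fusion into multinucleated giant cells, and CD37 and CD53 are largely restricted to leukocytes. Transcripts in these cells were compared as elicited over resident.

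Cd81 was the member that stood apart. Its signal was 7.09-fold lower on the elicited array, whereas the other 7 measured members lay within 2-fold. Of those, Cd53, Cd151, Tspan4, Tspan3 and Cd9 were somewhat higher on the elicited array, and Cd37 and Cd82 somewhat lower. A single array per group leaves no replicate error and allows no test, so 2-fold serves as a descriptive limit, and precision is limited by the number of arrays.

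The DNA upstream of Cd81 and Cd53 is shown because these genes had the lowest ratio of the members and the highest ratio of its leukocyte-restricted members. Each stretch is the 250 bases before the gene's annotated start in RefSeq build GRCm38.p6, read 5′ to 3′ on the gene's own strand, chr7:143052500-143052749 on the plus strand and chr3:106790150-106790399 on the minus strand. Capitals mark GGGCGG and GAGGAA on either strand. GGGCGG is the GC box, which SP-family factors bind. GAGGAA is a run that the myeloid and B cell factor encoded by Spi1 binds. The shorter ETS core GGAA was not searched for and is not marked. No marked GC box overlaps a marked GAGGAA.
Cd81: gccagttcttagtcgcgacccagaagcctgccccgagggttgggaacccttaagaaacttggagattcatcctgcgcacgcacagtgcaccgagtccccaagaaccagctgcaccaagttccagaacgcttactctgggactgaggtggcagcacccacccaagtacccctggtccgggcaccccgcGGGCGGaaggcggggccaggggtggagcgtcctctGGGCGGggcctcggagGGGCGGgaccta
Cd53: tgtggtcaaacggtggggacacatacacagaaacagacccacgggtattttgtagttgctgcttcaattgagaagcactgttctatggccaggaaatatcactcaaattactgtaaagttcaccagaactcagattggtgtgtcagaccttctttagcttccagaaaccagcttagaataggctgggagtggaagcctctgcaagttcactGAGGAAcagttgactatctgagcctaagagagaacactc
The Cd81 stretch held 3 GC boxes, 16 CpG dinucleotides and no GAGGAA. The Cd53 stretch held 1 GAGGAA, 2 CpG dinucleotides and no GC box. Windows at the gene's outer start were available for 7 members; 5 of them held a GC box (Cd9, Cd81, Cd82, Cd151 and Tspan4), as did 26.8% of 19827 windows of the same length across the genome, and 1 held GAGGAA, as did 23.1%. The median window held 4 CpG dinucleotides, against 12 to 24 in the 6 members other than Cd53. A match is a run of letters and not a bound site, and the members with GC boxes include both Cd81 and genes with ratios of the other sign.

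The signals are linear intensities, 1 per probe set, and were compared on the log2 scale. A floor of 82.2 was set at the 95th percentile of probe sets for families expected to be silent here, such as olfactory receptors. Signals under it were raised to it. Each gene is given by the probe set whose mean log2 signal was highest. Of the 16 member probe sets, 13 were over the floor on both arrays, 1 on the resident array alone and 2 on neither. All 8 measured members were above it on both arrays through the probe set that represents them, so no member's ratio is a bound. The spread between probe sets of 1 gene had an SD of 0.48 on the log2 scale, a factor of 1.40, over 4465 genes. It covers probe behaviour and not animals or cultures.

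**Figure D1:**
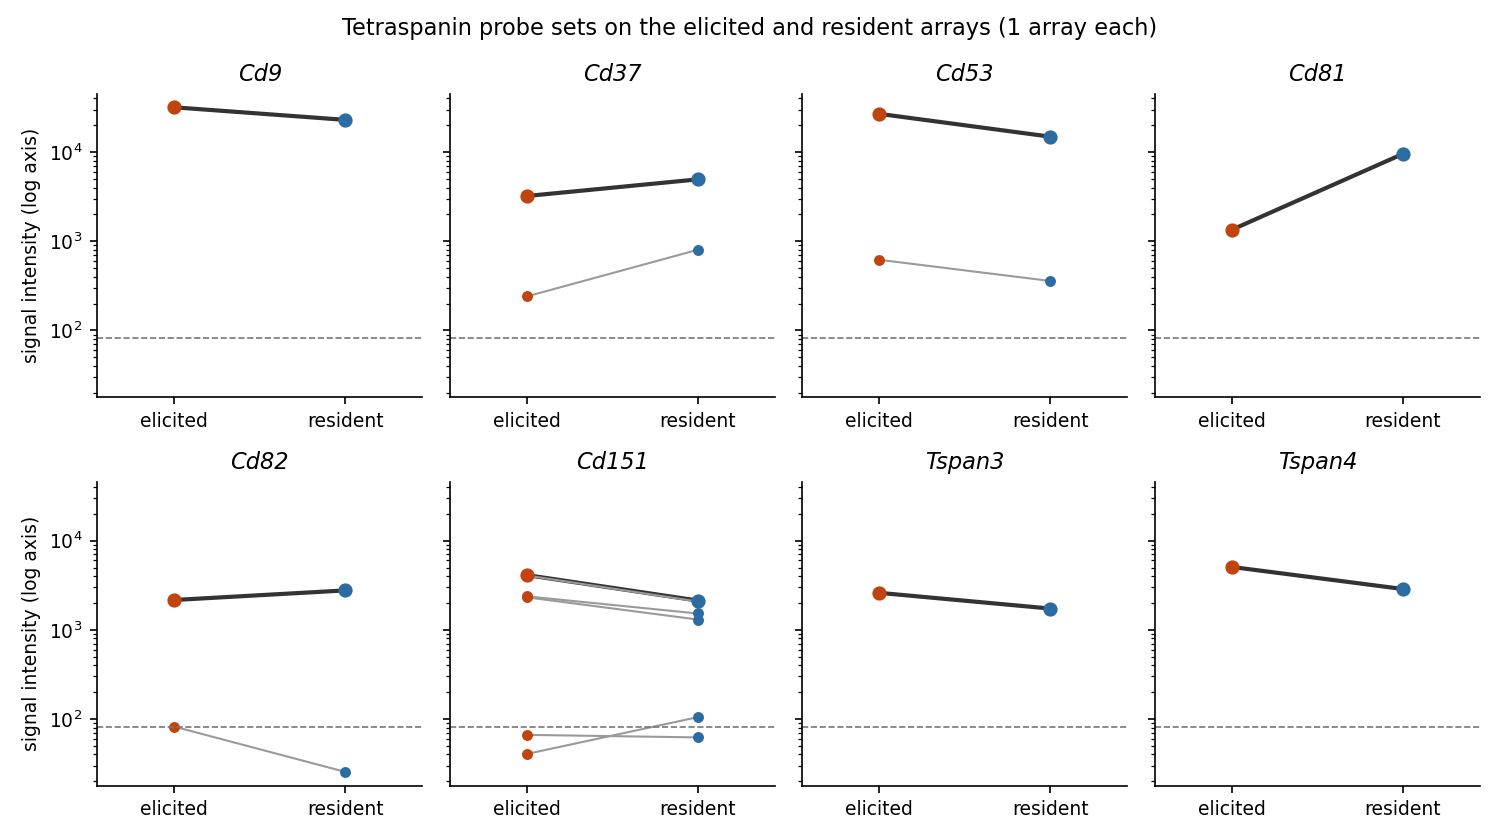
Signal intensity (log axis) of every member probe set in elicited (orange, left) and resident (blue, right) cells, 1 array each. Thick dark lines join the probe set that represents the gene, thin grey lines join the others, and the dashed line is the floor of 82.2. Cd81 drops to 1347 on the elicited array against 9553 on the resident array, while the thick lines of the other genes are closer to level.

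Cd81 encodes CD81, a broadly expressed tetraspanin that pairs with CD9 in macrophages. Its single probe set had a signal of 1347 in elicited and 9553 in resident cells. The log2 ratio was -2.83. Of 11499 genes over the floor on at least 1 array, 121 had a lower ratio, so Cd81 lay in the lowest 1.05%. No second probe set of Cd81 was available to set beside it.

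Cd9 encodes CD9, the partner of CD81 in holding macrophage fusion in check and a protein also abundant on platelets. Its single probe set had a signal of 31860 in elicited and 23033 in resident cells, a log2 ratio of 0.47 or 1.38-fold. That difference is smaller than the spread between probe sets of 1 gene, and it all but vanished, at a log2 ratio of 0.0049, once the trend of ratio with signal was removed by loess. Cd9 and Cd81 were unlike each other. Their log2 ratios differed by 3.29, a 9.81-fold gap in change, and by 3.11 with quantile normalization and 3.04 with loess. The other scalings add a constant to every ratio and cannot move this gap.

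Among the leukocyte-restricted members, Cd53, which encodes a pan-leukocyte surface protein, had a signal of 26906 in elicited and 14921 in resident cells. The ratio was 1.80-fold. Its other probe set had signals of 621 and 359 in the same order, a ratio of 1.73-fold, so both probe sets of Cd53 gave nearly the same change. Cd37, which encodes a tetraspanin strongest on mature B cells and present on macrophages and dendritic cells, went the other way. Its representative probe set had a signal of 3223 in elicited and 4952 in resident cells, a log2 ratio of -0.62 or 1.54-fold lower.

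The probe sets of Cd37 disagreed in size. The other one had a signal of 241 in elicited and 803 in resident cells, which is 3.34-fold lower. Both pointed the same way, but only this dimmer probe set passed 2-fold, as 15.2% of all named probe sets over the floor did in that direction. Combining the probe sets of each gene by their median, or by the mean of those over the floor, put Cd37 at a log2 ratio of -1.18, so that Cd37 and Cd81 were both past 2-fold downward, against 9.46% and 11.3% of all genes under these rules. No member was past 2-fold upward under either, where the shares were 5.83% and 6.89%. Restricting the genes to those over the floor on both arrays (7.56% higher and 11.1% lower), or leaving out probe sets marked _x_ or _s_ (7.77% and 12.2%), left the members' counts at 0 higher and 1 lower. Of all named probe sets, 6.65% were past 2-fold upward.

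Cd151 encodes a binding partner of laminin-binding integrins and had the highest ratio of the 8 members as deposited. Without probe sets marked _x_ or _s_ its log2 ratio was 0.64, and with its probe sets combined 0.73 by the median and 0.61 by the mean, each below the values of Cd53 and Tspan4. Its representative probe set had a signal of 4114 in elicited and 2131 in resident cells, 1.93-fold higher and so just inside the 2-fold limit. Further bright probe sets lay between 1.56-fold and 1.96-fold higher. The lowest of these (with signals of 2374 and 1525 on the elicited and resident arrays) is the 1 bright probe set without the _x_ mark, which flags probes that may bind other transcripts. The remaining probe sets of Cd151 were dim. One had a signal of 40.5 in elicited and 105 in resident cells, and the other was under the floor on both, with 66.4 and 62.2.

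Cd82 encodes a tetraspanin known as a suppressor of metastasis that restrains integrin-driven migration. Its representative probe set had a signal of 2161 in elicited and 2768 in resident cells, 1.28-fold lower. The other probe set was not over the floor on either array, at 82.17 and 25.5, and says nothing about direction. Cd82 came within 1.03-fold of level with equal medians, and its sign did not turn under any of the 5 scalings.

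Tspan4 encodes a tetraspanin of migrasomes, the vesicles that migrating cells leave on their retraction fibres. Its single probe set had a signal of 5074 in elicited and 2871 in resident cells, 1.77-fold higher. Tspan3, a broadly expressed tetraspanin, had a signal of 2599 in elicited and 1733 in resident cells through its single probe set, 1.50-fold higher. Both stayed on the same side of 0 under all 5 scalings.

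Read as a group, 1 of the 8 measured members was 2-fold or more lower, against 11.8% of all genes over the floor, and 0 were 2-fold or more higher, against 8.04%. Counts this small, near the background as deposited, are not a result about the group, and they moved to 3 of 8 higher with equal medians and 2 of 8 lower with probe sets combined. The median log2 ratio was 0.53 over the 8 members and -0.03 over all genes. Ratios varied with brightness. Over genes that cleared the floor on both arrays, the median log2 ratio was 0.41 in the decile with the highest signal, where Cd9 and Cd53 lay, and 0.21 in the next, which held Cd37, Cd81, Cd82, Cd151 and Tspan4. Set against its own decile, Cd9 was 0.06 above the median and Cd53 was 0.44 above. Cd151 was 0.74, Tspan4 0.61 and Tspan3 0.51 above theirs, and Cd82 was at -0.57, Cd37 at -0.83 and Cd81 at -3.03 from theirs.

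**Figure D2:**
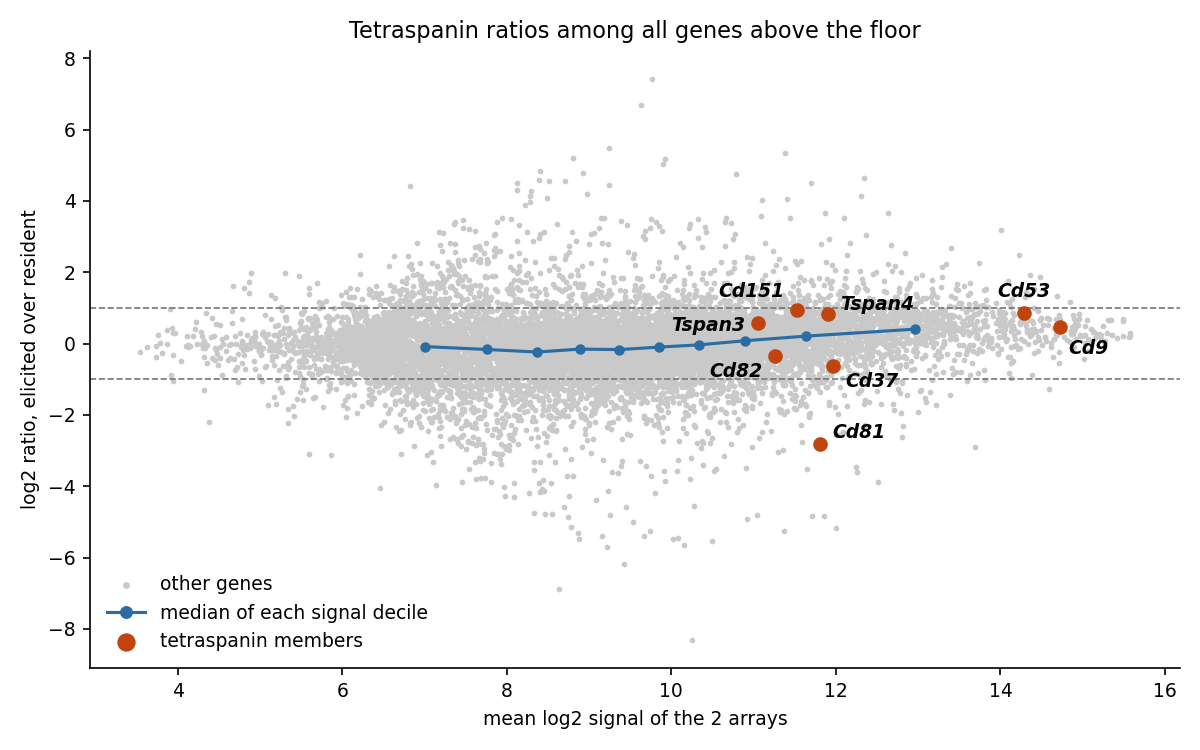
Log2 ratio of elicited over resident signal (vertical) against the mean log2 signal of both arrays (horizontal) for the 11499 genes over the floor on at least 1 array (grey), with the 8 measured tetraspanins in orange. The blue line joins the medians of the signal deciles and climbs to 0.41 in the highest one; dashed lines mark 2-fold. Cd81 lies far below the line at -2.83, and the other members lie within the dashed lines.

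How many members passed 2-fold upward depended on the scaling. When the arrays were scaled to a common median over probe sets that cleared the floor on both (equal medians), Cd151 (2.39-fold), Cd53 (2.23-fold) and Tspan4 (2.19-fold) passed it, so 3 of 8 members were 2-fold or more higher, as were 14.2% of all genes under that scaling. None passed it upward as deposited, with quantile normalization, with loess or on the spiked hybridisation controls. Of all genes, 11.0% passed it upward with quantile, 9.29% with loess and 4.52% on the spiked controls. The spiked controls themselves were brighter on the elicited array in 9 of 9 probe sets, by 1.29-fold. Cd81 was between 5.73-fold and 9.17-fold lower over the 5 scalings, and was the 1 member past 2-fold downward in each, where the background was 7.35% with equal medians, 7.99% with quantile, 9.25% with loess and 20.4% on the spiked controls. No member changed sign.

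**Figure D3:**
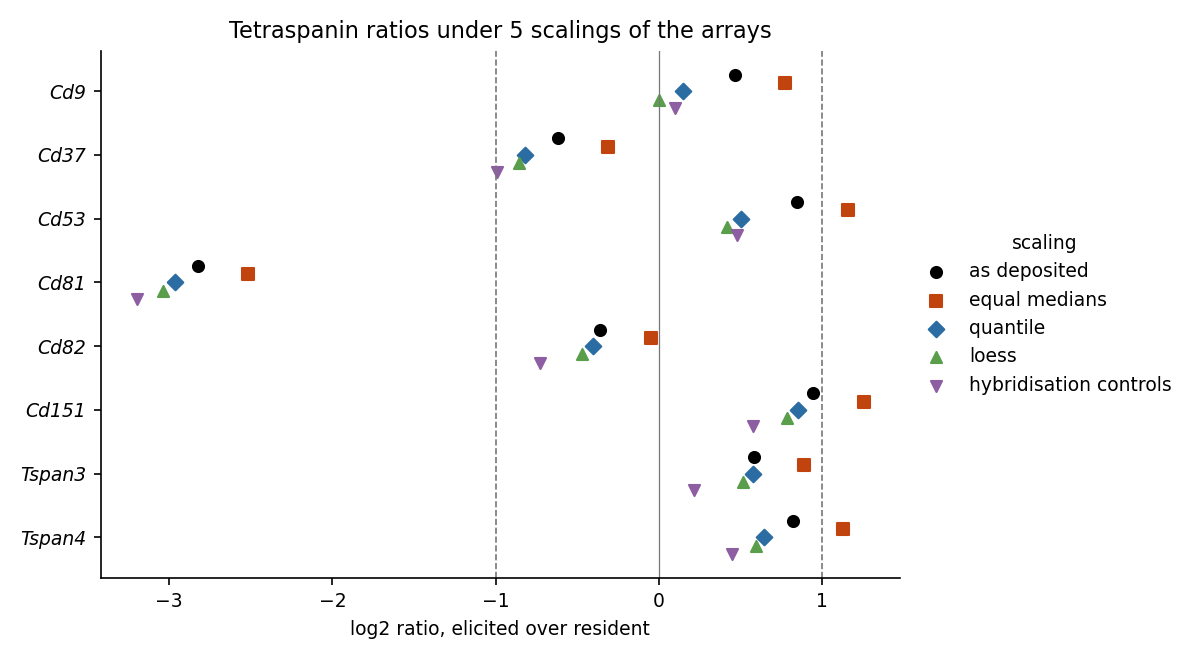
Log2 ratio of elicited over resident signal for each of the 8 measured members under 5 scalings of the 2 arrays (symbols), with dashed lines at 2-fold. Equal medians give the highest value for every member and the hybridisation controls the lowest for most; Cd81 stays between -3.20 and -2.52.

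Transcripts of other cell types were measured along with those of macrophages, and fewer cells of a type cannot be told apart from less RNA per cell. All 8 macrophage markers, such as Csf1r and Lyz2, cleared the floor on both arrays, with a summed signal of 137236 in elicited and 141135 in resident cells. Their median log2 ratio was -0.51, and 5 of the 8 were lower, among them Adgre1 (-0.82) and Mertk (-0.87). Itgam and Cd14 were past 2-fold downward, against 11.8% of all genes, and Fcgr1 upward, against 8.04%. With loess 4 were past 2-fold downward, against 9.25%, and on the hybridisation controls 4, against 20.4%. The members that B cells carry include Cd81 and Cd37, and also the pan-leukocyte Cd53, which was 1.80-fold higher. Of the 8 B cell markers measured, 6 were 2-fold or more lower on the elicited array, against 11.8% of all genes. Their summed signal was 4926 in elicited and 24482.5 in resident cells. Most of the elicited sum was Cd22, an inhibitory lectin, at 4078 in elicited and 2269 in resident cells, and the other 7 markers summed to 848 in elicited and 22213 in resident cells. The floor was cleared by 7 of them in elicited cells, where Cd79a, an antigen receptor chain, was at 37.0, and by all 8 in resident cells. The part of B cells in the lower Cd81 and Cd37 signals, in the higher Cd53 signal and in those of the other members was not tested.

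Markers of mesothelial cells and fibroblasts pointed in the opposite direction. Members also made outside the leukocytes include Cd9, Cd151, Tspan4 and Tspan3, which were higher. They also include Cd81, which was 7.09-fold lower, and Cd82, which was 1.28-fold lower. Of 12 such markers, 11 cleared the floor in elicited cells and 4 in resident cells, and 9 were 2-fold or more higher, against 8.04% of all genes. Their summed signal was 16540 in elicited and 764 in resident cells, and the mesothelial marker Msln was over the floor on neither. The part of mesothelial cells and fibroblasts in the signals of these members was not tested. Platelet markers, given because platelets carry CD9, summed to 15929 in elicited and 20975.5 in resident cells, nearly all of it from Pf4 at 15376 in elicited and 19904 in resident cells. The other 5 summed to 553 in elicited and 1071 in resident cells. Ppbp was at 23.2 and 596, Gp9 went the other way at 123 and 19.9, and Gp1bb was over the floor on neither.

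Most markers of the other leukocytes that cleared the floor were lower in elicited cells. Summed signals of the markers were 466 in elicited and 769 in resident cells for T cells, 307 and 1607 in that order for dendritic cells, and 141 and 2484 for mast cells. Cd28 made up 321 and 112 of the T cell sums. Eosinophil markers summed to 1145 in elicited and 543 in resident cells, of which Siglecf made up 1014 and 322. Il5ra, the other eosinophil marker over the floor, was at 57.0 and 124. Neutrophil markers summed to 8307 and 11994, of which S100a8 made up 4675 and 3663. The other neutrophil markers over the floor, Csf3r and Mmp8, were both lower. Past 2-fold downward were 2 of 4 T cell, 3 of 4 dendritic cell, 5 of 5 mast cell, 0 of 2 eosinophil, 2 of 3 neutrophil (0 with equal medians) and 1 of 5 platelet markers over the floor, and 1 T cell marker (Cd28) and 1 eosinophil marker (Siglecf) were 2-fold or more higher. Over all genes these shares were 11.8% lower and 8.04% higher. The T cell markers Cd3e and Cd247, the dendritic cell markers Flt3, Xcr1 and Itgae, the mast cell marker Ms4a2, the eosinophil markers Epx, Prg2 and Ccr3 and the neutrophil markers S100a9, Cxcr2 and Ngp were over the floor on neither array.

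The rest of the tetraspanin family was mostly within 2-fold. Of 22 other tetraspanin genes, 21 had a probe set and 13 were over the floor. Of these 13, 1 was 2-fold or more lower, against 11.8% of all genes, and 2 were 2-fold or more higher, against 8.04%. Their median log2 ratio was 0.10, against -0.03 over all genes. On the hybridisation controls it was -0.09, against -0.36 over all genes. Tspan32, a tetraspanin of blood-forming cells, had a signal of 314 in elicited and 1166 in resident cells, 3.72-fold lower, and both of its probe sets passed 2-fold. Tspan13 had a signal of 3640 in elicited and 1618.5 in resident cells, 2.25-fold higher, though its log2 ratio was 0.80 on the hybridisation controls. Upk1b, a uroplakin of the bladder lining, had a signal of 434 in elicited and 83.8 in resident cells, where it barely cleared the floor, and was 5.18-fold higher. Tspan31 (1.71-fold), Tspan14 (1.55-fold), Tspan5 (1.52-fold) and Tspan17 (a log2 ratio of -0.18, turning to 0.12 with equal medians) lay within 2-fold. Tspan5, Tspan14 and Tspan17 belong to the subgroup that carries the protease ADAM10 to the surface.

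Transcripts of the proteins that tetraspanins hold in place did not share a direction. Of 15 partner genes over the floor, 4 were 2-fold or more lower, against 11.8% of all genes, and 1 was 2-fold or more higher, against 8.04%. Their median log2 ratio of 0.09 turned to -0.35 with loess, -0.28 on the hybridisation controls and -0.25 with quantile normalization, and was 0.40 with equal medians. The medians over all genes were 0.07, -0.36, 0.16 and 0.25 in that order. Ptgfrn, an immunoglobulin-family protein that binds CD9 and CD81 directly, had a signal of 1508 in elicited and 4566 in resident cells, 3.03-fold lower. Itga4 (3.75-fold) and Itga6 (3.11-fold), integrin chains that associate with CD81 and CD151, were also lower, as was Cr2 (at least 3.30-fold), a complement receptor that associates with CD81 on B cells. All probe sets of Ptgfrn, Itga6 and Itga4 over the floor were 2-fold or more lower, the B cell marker list was lower as well, and the part of B cells in these values was not tested. Itga3, a laminin-binding integrin chain, was at least 2.01-fold higher, its resident signal being under the floor, and within 2-fold on the hybridisation controls. The scavenger receptor gene Cd36, a partner of CD9, was 1.73-fold higher on the elicited array, a ratio that passed 2-fold with equal medians. Itgb2, Clec7a and Cd44 lay within 1.28-fold of level as deposited, and each took the other sign under at least 1 scaling.

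Genes for macrophage fusion, the process that CD9 and CD81 restrain, were far apart from each other. Of 14 over the floor, 6 were 2-fold or more higher, against 8.04% of all genes, and 4 were 2-fold or more lower, against 11.8%. Their median log2 ratio was 0.59, and ranged from 0.14 on the hybridisation controls through 0.18 with loess and 0.27 with quantile to 0.90 with equal medians. Over all genes the medians under these scalings were -0.36, 0.07, 0.16 and 0.25 in that order. Atp6v0d2, a proton pump subunit needed for fusion of osteoclasts, had a signal of 22596 in elicited and 1776 in resident cells, 12.7-fold higher. Acp5 (5.20-fold), Trem2 (4.82-fold), Ccl2 (4.57-fold), Mrc1 (3.96-fold) and Itgb3 (2.09-fold) were higher as well. On the hybridisation controls, though, Itgb3 was at a log2 ratio of 0.69 and 5 of the 6 passed. The signal of Itgb3 was 93.5 in resident cells, close to the floor, and only 1 of its 2 probe sets was over the floor. On the lower side, Dcstamp, the membrane protein that triggers fusion, had a signal of 224 in elicited and 497 in resident cells, 2.22-fold lower. Nfatc1 (2.60-fold), Mmp9 (3.26-fold) and P2rx7 (2.22-fold) were also lower, and Ocstamp, the relative of Dcstamp, was over the floor on neither array. With equal medians 2 of these 4 passed 2-fold downward. Not every probe set over the floor passed it as deposited, with log2 ratios from -1.54 to -0.93 for Nfatc1 and from -1.47 to -0.41 for P2rx7. Tyrobp, Sirpa, Cd44 and Cd47 lay within 2-fold.

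Exosome and multivesicular body genes, which make the vesicles that tetraspanins mark, were mostly within 2-fold. Of 18 over the floor, 2 were 2-fold or more higher, against 8.04% of all genes, 1 was 2-fold or more lower, against 11.8%, and 15 were within. The median log2 ratio of the 18 was 0.42 as deposited and 0.05 on the hybridisation controls, against -0.03 and -0.36 over all genes. Rab27a, a small GTPase that docks secretory vesicles, had a signal of 114 in elicited and 551 in resident cells, 4.81-fold lower. Arf6 was 2.06-fold and the sphingomyelinase gene Smpd3 at least 2.33-fold higher, though the probe sets of both pointed in both directions and Arf6 was at a log2 ratio of 0.67 on the hybridisation controls. Sdcbp, which encodes the exosome adaptor syntenin, was 1.43-fold higher, and Chmp4b (1.48-fold), Vps4b (1.32-fold) and Chmp2a (1.93-fold) of the membrane-cutting machinery lay in the same range.

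Late endosome and lysosome membrane genes, the compartment of CD63, had 2 of 10 members 2-fold or more higher and none lower as deposited, against 8.04% and 11.8% of all genes. The number higher was 4 with equal medians (14.2% of all genes), 1 with quantile (11.0%), 0 with loess (9.29%) and 0 on the hybridisation controls (4.52%). Npc1, the cholesterol exporter of late endosomes, was 2.05-fold higher. Mcoln1, a lysosomal calcium channel, was 2.02-fold higher by its representative probe set, with log2 ratios from -1.67 to 1.01 among its 3 probe sets. Cd68 was 1.76-fold and Lamp1 1.42-fold higher, and Lamp2 and Laptm4a had log2 ratios of 0.06 and -0.14, both of which took the other sign under at least 1 scaling.

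**Figure D4:**
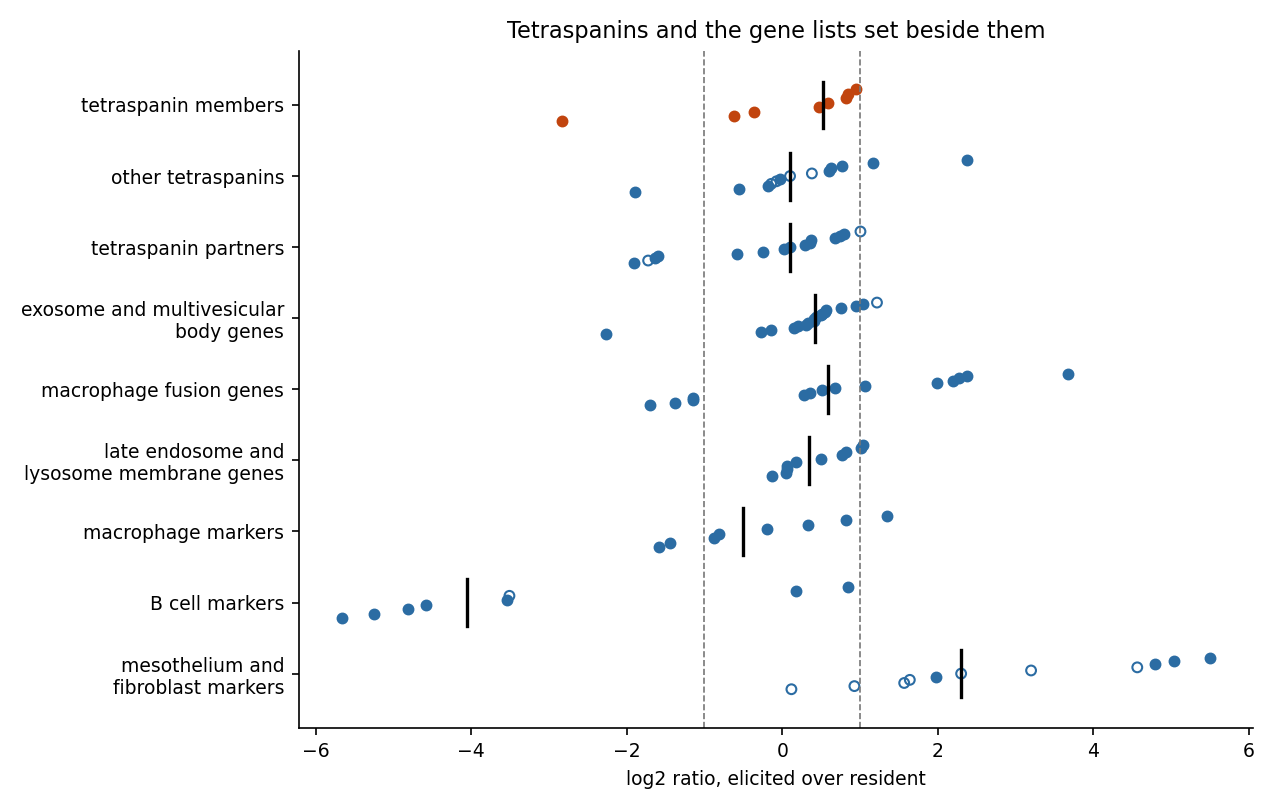
Log2 ratio of elicited over resident signal for each gene over the floor on at least 1 array, in the tetraspanin members (orange) and in the gene lists set beside them (blue); open circles are bounds against the floor, vertical bars are medians and dashed lines mark 2-fold. The members cluster between -0.62 and 0.95 apart from Cd81 at -2.83, the B cell markers have a median of -4.06 and the mesothelium and fibroblast markers one of 2.30.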

How the data were processed

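RNA from 1 elicited and 1 resident macrophage sample was measured on an Affymetrix 3' expression array with 45101 probe sets. The deposited values are linear signal intensities which the authors computed using MAS5 (per the submitters' processing notes), with version and settings not given in the sources used here. Without the 2% lowest and 2% highest probe sets, the mean was 500.004 on the elicited and 500.003 on the resident array. No further normalization was applied for the values as reported.

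Names came from the platform annotation, and gene IDs were used to bring symbols up to RefSeq GRCm38.p6 (34754 of 34958 probe sets with 1 symbol matched). Those with several symbols (932) or none (9211) were left out. The floor of 82.2 came from 252 values of 126 probe sets of silent families (sensory receptors and keratin-associated proteins). Promoter windows came from RefSeq.

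All members and every listed gene 2-fold or more apart are named, with up to 4 others of highest signal per pathway list; marker genes are given mainly as sums and counts. The members, the 5 pathway and 9 cell type lists and the alternatives were chosen with earlier results of these data known. Alternatives changed the scaling (loess span 0.4), the floor, the probe sets and the filter. The 3' to 5' signal ratio of beta-actin was 1.22 on the elicited and 1.19 on the resident array. The tools were Python 3.11.15 with statsmodels 0.14.6, pandas 2.3.3, matplotlib 3.10.9 and numpy 2.4.6. The scalings and gene ratios were also run on simulated data with changes past 2-fold in bright genes. That run says little about ratios within 2-fold. It did not cover the ways of combining probe sets, the filters, the promoter windows or the neighbours.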

Additional observations from a re-analysis of the deposited data

How the results depend on the processing

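Of 104 member values recomputed under 13 alternatives, 56 differed from the deposited log2 ratio; the other settings left the value as it was. No sign changed. Cd81 took another value in 6 of the 13, being 5.73-fold to 9.17-fold lower; its single bright probe set left the probe-set rules and filters no way to change it. The number of members 2-fold or more higher was 0 as deposited and 3 with equal medians; the constant added to every ratio by that scaling shows the cause. The number 2-fold or more lower was 1 as deposited and 2 when probe sets were combined by their median or by the mean of those above the floor. In both cases Cd37 joined Cd81 with a log2 ratio of -1.18, against 9.46% of all genes lower with the median and 11.3% with the mean, because its second probe set then counts. The members' median log2 ratio of 0.53 ranged from 0.16 (hybridisation controls) to 0.83 (equal medians). The median over all genes moved too, to -0.36 on the hybridisation controls and 0.25 with equal medians. The members and all genes lay closer with quantile, at 0.33 and 0.16, and with loess, at 0.21 and 0.07. Over all genes, the share of higher among those 2-fold or more apart was 65.9% with equal medians, 57.9% with quantile, 50.1% with loess, 40.5% as deposited and 18.2% on the hybridisation controls. No paired analysis was possible because each group has 1 array, and no array could be left out. Detection calls were not used here, so signals near the floor are weakly grounded.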

Other observations

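Some tetraspanin genes lie close to each other, and the pairs below were picked after the values were seen. In RefSeq annotation Tspan32 is the nearest protein-coding neighbour of Cd81 on one side, and both were lower on the elicited array, with log2 ratios of -1.89 and -2.83. Tssc4, the neighbour on the other side of Cd81, had a log2 ratio of -0.04, with signals of 468 in elicited and 482 in resident cells. Cd151 and Tspan4 lie on the same chromosome with only Polr2l between them, which was not analysed here, and had log2 ratios of 0.95 and 0.82. Beyond Tspan4 lies Chid1 at 0.75, and beyond Cd151 lies Cracr2b at -0.30. Cd82 and Tspan18 are neighbours too, but Tspan18 was above the floor on neither array. No test was run on these neighbours.

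Genes beside the other members, also picked after their values were seen, differed from them in places. Vwf, the von Willebrand factor gene beside Cd9, had a signal of 1276 in elicited and 76.0 in resident cells, where it was under the floor, and is a gene of endothelial cells and platelets. Pstpip1, a cytoskeletal adaptor gene beside Tspan3, had a signal of 2033 in elicited and 418 in resident cells, a log2 ratio of 2.28.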
